A study of Mus musculus with 29 samples.

Results

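The comparison is between the tibialis anterior (TA), the fast-twitch muscle on the front of the shin, of 8 mice at 28 months (28m) and that of 7 adult mice at 6 months (6m), in the libraries of the second sequencing run. These are 15 of the 29 libraries of the series, chosen by age and run alone, and the other 14 hold 7 mice at 24m and a first library of each of the same 7 mice at 6m. All mice were male C57BL/6 animals from the aging colony of the National Institute on Aging, without a transgene or drug treatment in either group, and the labels give the age of the oldest group as 28 months or more. Both groups had gone through treadmill, wheel, grip, cling and rotarod tests before the muscle was taken under ketamine and xylazine and frozen. Poly-A RNA was made from the entire muscle, so each value is an average over fibres, vessels, nerve, connective tissue and blood cells, and fewer cells of a type cannot be told apart from less RNA per cell. Replicate numbers only name the mice.

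Muscle fibres keep their protein by balancing ribosomes and translation factors against the proteasome, autophagy and the ubiquitin ligases that mark proteins for it. Each fibre is wrapped in a basement membrane of type IV collagen, laminins, nidogens and perlecan, which the dystrophin complex anchors to the cytoskeleton, and the motor nerve keeps acetylcholine receptors of the adult kind at a single spot on the fibre. Fibres that lose their nerve make the fetal receptor subunit, Myog and Runx1 again along their length. Fibro-adipogenic progenitors, capillaries and satellite cells lie between or on the fibres.

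Total counts on genes were between 17633475 and 25664714 per library at 6m and between 22395528 and 27179445 at 28m, and the 10 most abundant genes held between 23.2% and 26.9% of them. Levels are given as CPM, the counts of a gene per 1000000 counts of its library after TMM scaling, whose factors lay between 0.92 and 1.04. The tissue label was checked on fibre markers: Myh4, the myosin heavy chain of the fastest fibres, stood at 65126 ± 2765 CPM at 6m (SD, n = 7) and 46609 ± 12019 CPM at 28m (SD, n = 8), and Pvalb, the calcium buffer of fast fibres, at 6434 ± 580.5 CPM at 6m (SD, n = 7) and 9858 ± 3655 CPM at 28m (SD, n = 8). The myosin heavy chain of slow fibres, Myh7, stood at 3.39 ± 1.40 CPM at 6m (SD, n = 7) and 4.0 ± 3.65 CPM at 28m (SD, n = 8). Haemoglobin genes had at most 1 count in any of these libraries, which was not taken as a measure of blood. The erythrocyte markers, which include them, still held 0.00169% of counts at 6m and 0.00123% at 28m.

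Of 12994 genes tested, 3159 (24.3%) were higher and 2981 (22.9%) lower at 28m with an adjusted p under 0.05 (edgeR quasi-likelihood test, Benjamini-Hochberg adjusted over all genes tested), which is 47.3% in either direction. In the text, rose and fell are used only of genes past that threshold, and numbers in parentheses after a gene symbol are its log2 fold change, positive when higher at 28m. The 8 old mice exceeded the highest 6m value in 741 genes (5.7%) and stayed under the lowest in 870 genes (6.7%). Every count of members given for a list is to be read against these shares. Among the 988 genes with an average log2 CPM of at least 7, 327 rose and 263 fell. Protein-coding genes rose and fell about equally often (3002 and 2923 of 12505), whereas long noncoding genes rose more often than they fell (102 and 27 of 315). After removal of a trend in exonic length and GC content, described next, the counts were 2702 and 1950 for protein-coding and 58 and 41 for long noncoding genes.

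The direction of change went with exonic length, taken over the exons of all transcripts of a gene. Genes were split by exonic length into 10 groups of equal size. In the shortest group, with exonic lengths from 281 to 1788 bases, 62.7% rose and 2.48% fell, with a median log2 fold change of 0.55. In the longest group, 3.96% rose and 55.9% fell, with a median of -0.44. The medians declined at every step between them. Among genes in the longest of 3 classes by exons, 28.3% of those with the shortest genomic span fell and 54.3% of those with the longest, but their median exonic lengths also differed, at 7266.5 and 9829 bases, so span and exonic length were not separated. Against the first-run libraries of the same 6m mice, the medians of the shortest and longest groups were 0.43 and -0.32, and the 24m mice against their own 6m libraries gave 0.27 and -0.06.

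The size of the length trend differed between mice. As the median of the longest group minus that of the shortest, relative to the mean of the 6m mice, it lay between -0.09 and 0.07 on the log2 scale at 6m. At 28m it was -0.17 and -0.23 in replicates 8 and 4, -0.52 in replicate 6, -0.91 and -1.06 in replicates 1 and 2, -1.33 in replicate 5, -1.62 in replicate 7 and -1.65 in replicate 3. All 8 mice lay below all 7 at 6m, with replicates 4 and 8 closest to them and replicates 3, 5 and 7 farthest away. RNA integrity is given in the methods only as a mean over samples, so its part in the trend was not tested. For this reason each list below is given as fitted and again after a smooth trend with exonic length and GC content was removed from every library, in which case 2768 (21.5%) of 12872 genes were higher and 1997 (15.5%) lower. This removal also takes out whatever part of a biological difference goes with length.

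**Figure D1:**
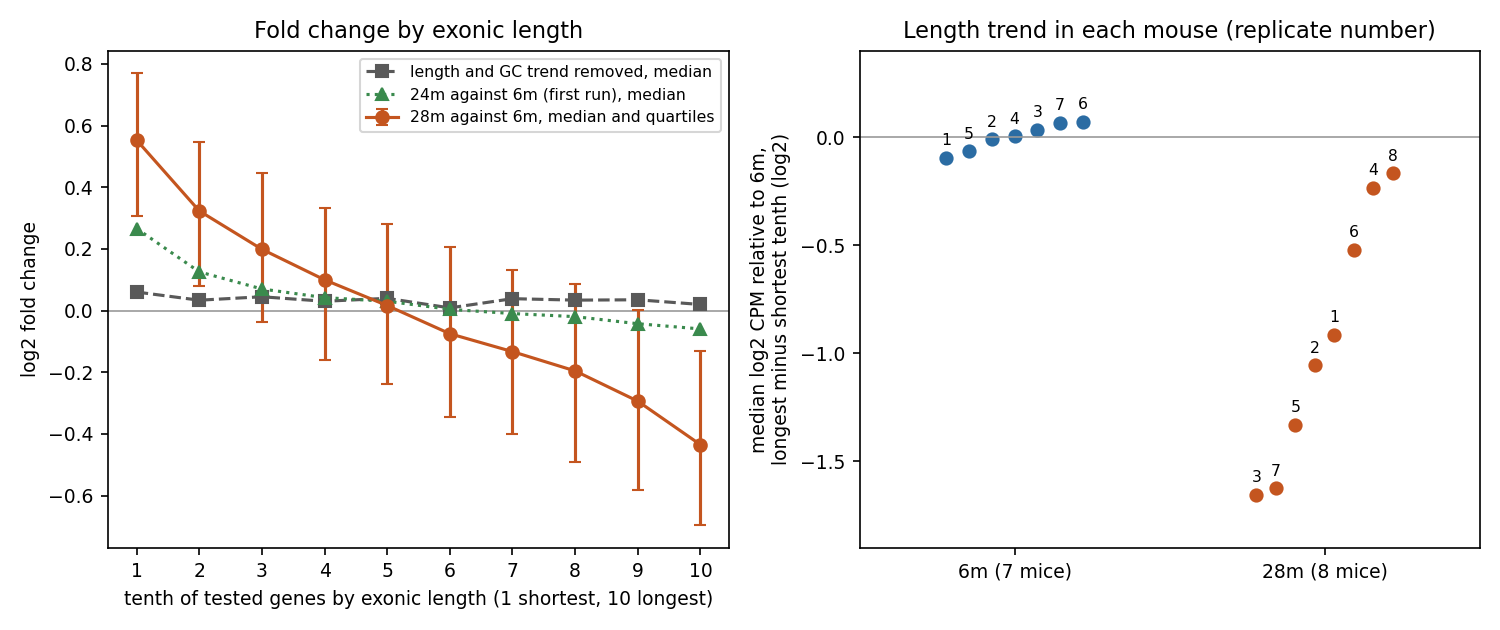
Left: median log2 fold change of 28m against 6m (circles, with quartiles) in 10 groups of genes by exonic length, the same after removal of the length and GC trend (squares), and 24m against 6m (triangles). Right: the median log2 CPM of the longest minus the shortest group in each mouse, relative to the 6m mean, with replicate numbers. The median falls from 0.55 to -0.44 across the groups, and all 8 mice at 28m lie below the 7 mice at 6m.

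Across the lists of pathways, cell markers and gene families, the highest medians among lists with at least 5 tested members were those of the denervation response (1.84), cytosolic ribosomal proteins (0.91), MHC class I (0.90) and snoRNA host genes (0.88). Without replicate 2 at 6m, the lists next to the denervation response were instead embryonic and regenerating fibre (1.25) and macrophage markers (1.04). The lowest were those of fibrillar collagens (-1.10), the basement membrane (-1.05), fibroblast markers (-0.64) and protocadherins (-0.59). The place of the fibrillar collagens rests on 1 mouse, since without replicate 2 at 6m their median was -0.66, while that of the basement membrane lay between -1.16 and -0.96 whichever mouse was left out. Once the trend was removed, the order was another: the denervation response (1.71) was followed by embryonic and regenerating fibre (0.94), interferon-stimulated genes (0.63) and MHC class I (0.61), with cytosolic ribosomal proteins at 0.50, and the lowest medians were those of mast cell markers (-0.82), the basement membrane (-0.67) and fibrillar collagens (-0.60). The median of all genes tested was 0.01. The scalings tried moved it by less than 0.1, and the T and NK lymphocyte list, with no member above the filter on low counts, has no median.

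**Figure D2:**
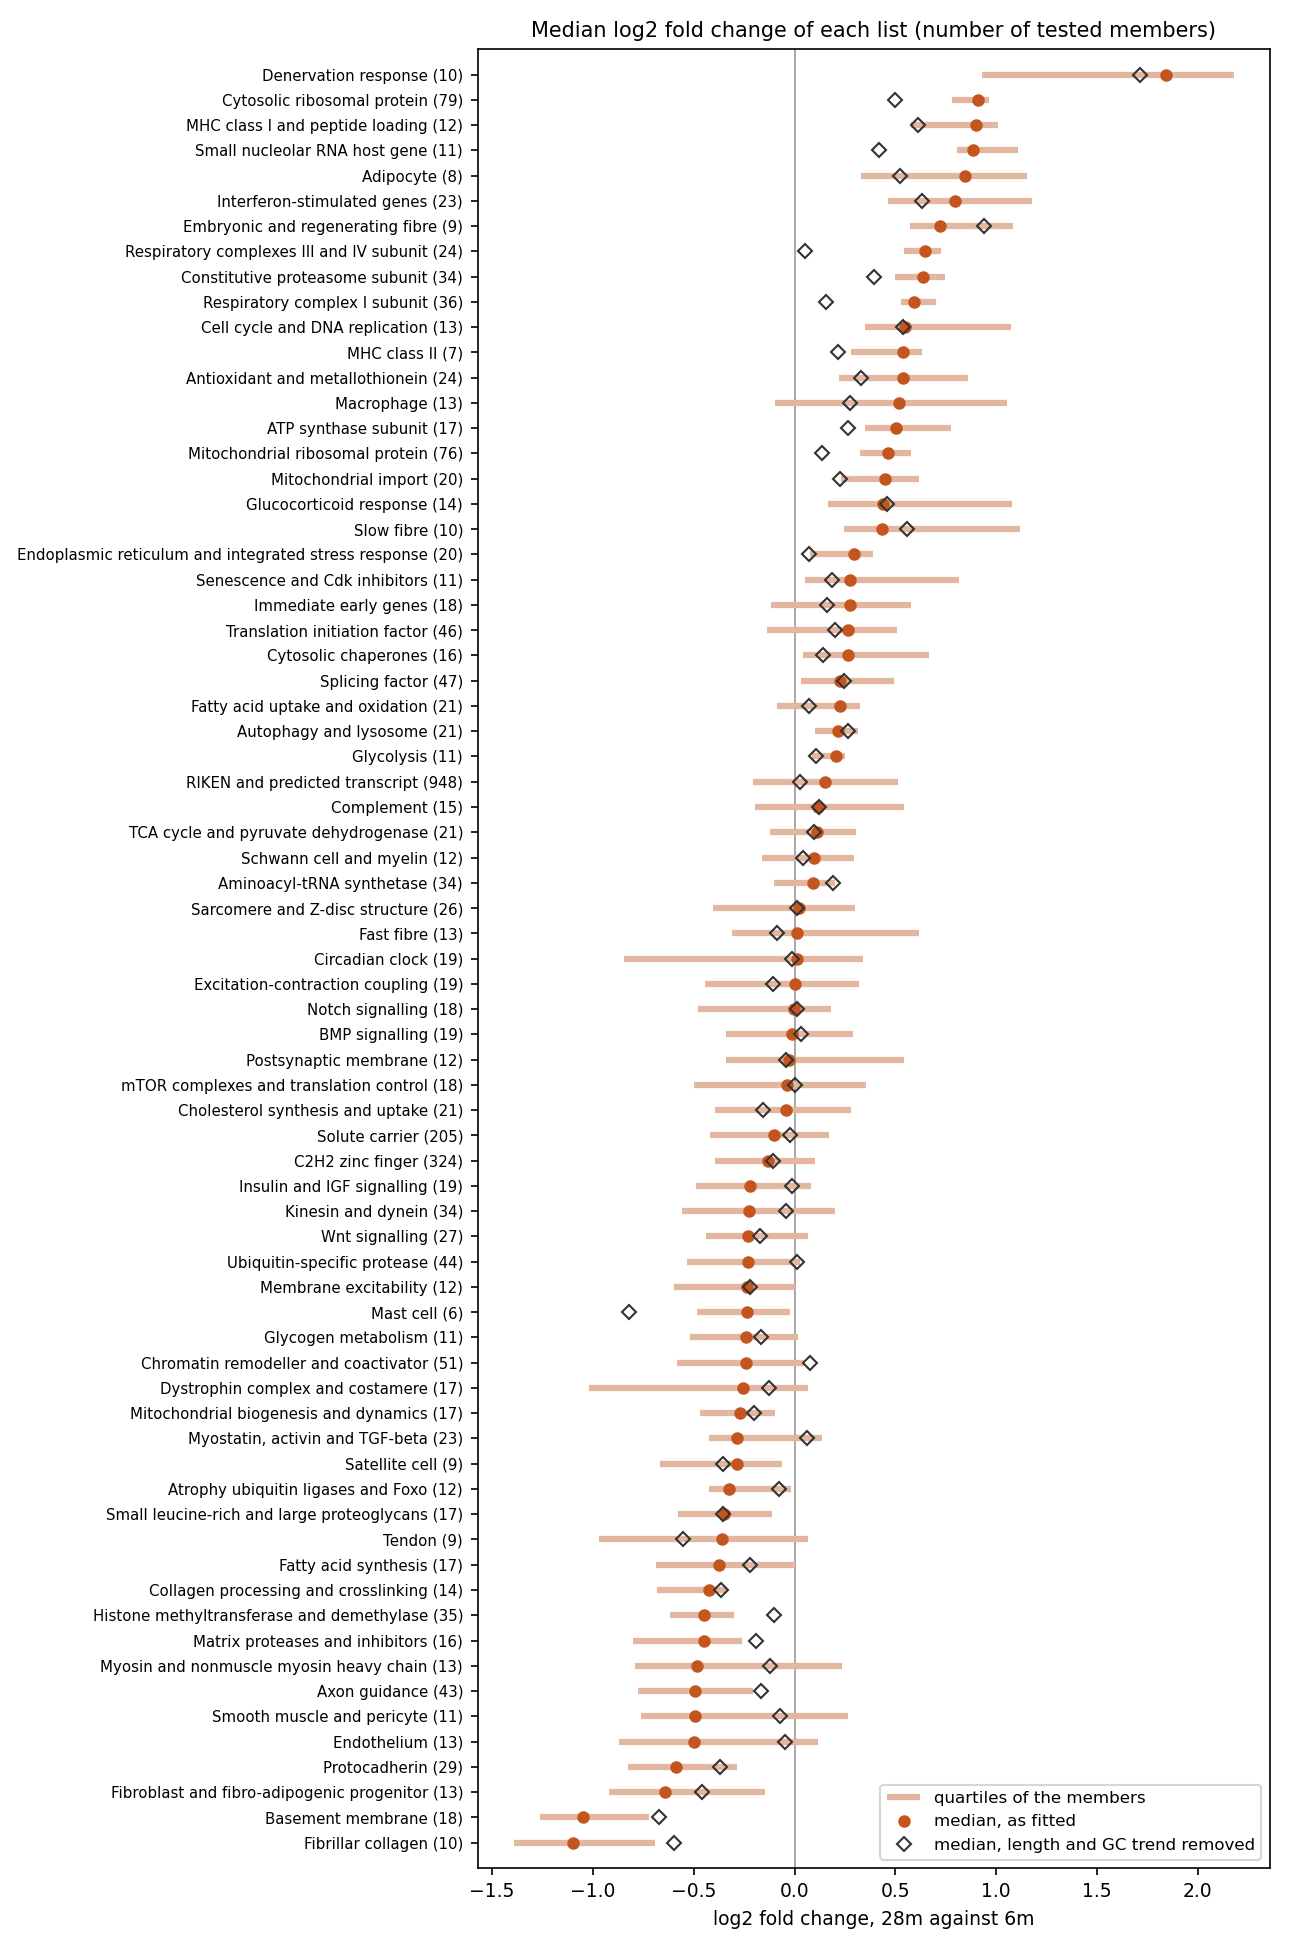
Median log2 fold change of 28m against 6m over the tested members of each list with at least 5 of them (filled circles, bars from the lower to the upper quartile of the members), and the same median after removal of the length and GC trend (open diamonds), with the number of tested members beside each name. The denervation list, at 1.84, lies farthest to the right and fibrillar collagens, at -1.10 with all mice and -0.66 without replicate 2 at 6m, farthest to the left.

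Genes for the ribosome rose almost without exception. Of 79 tested genes for cytosolic ribosomal proteins (of 83 in the table), 76 rose, 0 fell and 3 did not pass, with a median log2 fold change of 0.91 against 0.01 over all genes tested. In 63 of them the lowest old mouse exceeded the highest 6m mouse. Together they held 0.877% ± 0.0305 of all counts at 6m (SD, n = 7) and 1.55% ± 0.446 at 28m (SD, n = 8). After the trend removal, 69 rose and 0 fell, with a median of 0.50. Many of these genes have near-identical processed copies in the genome, so how reads were divided among copies is uncertain for single members.

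Rpl3, which forms part of the peptidyl transferase centre, ranged from 26.0 to 38.8 CPM at 6m (median 31.7) and from 46.8 to 158 CPM at 28m (median 62.0). No mouse at 28m fell within the 6m range, and replicate 7 stood highest with 158 CPM (log2 fold change 1.29, standard error 0.22, adjusted p = 0.000679). Rps20, of the small subunit head, ranged from 122 to 146 CPM at 6m (median 128.12) and from 169 to 444 CPM at 28m (median 264) and rose by 1.15 on the log2 scale. Its lowest values at 28m were in replicates 8 and 4, the 2 mice with the shallowest length trend, and still above all 6m mice. By mouse, the mean of the whole list relative to 6m was 0.20 and 0.35 in replicates 8 and 4 and 1.37 and 1.46 in replicates 3 and 7, against -0.10 to 0.08 at 6m.

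Among genes that serve ribosome production and translation start, snoRNA host genes rose together as fitted and initiation factors moved less evenly. All 11 tested snoRNA host genes rose, whose introns hold the small RNAs that guide ribosomal RNA modification, with a median of 0.88 as fitted, and 6 of the 9 with a known length rose with the trend removed, with a median of 0.42. Among them were Snhg8 (1.14), Snhg1 (1.08) and Gas5 (0.79), and Gas5 is known for a terminal oligopyrimidine start like that of ribosomal protein genes. Of 46 initiation factors, 27 rose, 6 fell and 13 did not pass (with the trend removed, 23 rose and 1 fell), with a median of 0.27. Those that rose included Eif5b (0.86), Eif4a1 (0.81) and Eif3m (0.65), which join the subunits, unwind the messenger and belong to the eIF3 scaffold, and those that fell included Eif4ebp2 (-1.35) and Eif4g1 (-0.47). Eif4ebp2, an inhibitor that sequesters the cap-binding protein, had 9.71 and 9.99 CPM in replicates 5 and 7 at 28m and 90.7 and 87.8 in replicates 8 and 4, against a 6m range from 87.4 to 113 CPM. Its relative Eif4ebp1 rose (0.82). The call of Eif4g1 did not hold with the trend removed.

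Aminoacyl-tRNA synthetases, which charge tRNAs, gave more calls once the trend was removed. Of 34, 9 rose, 3 fell and 22 did not pass as fitted (with 1 mouse left out, 5 lower without replicate 6 at 28m), with a median of 0.09, and with the trend removed 15 rose and 1 fell, with a median of 0.19. Of 47 splicing factors, 23 rose, 4 fell and 20 did not pass (with 1 mouse left out, 2 lower without replicate 2 at 28m). Those that rose included core proteins of the small nuclear ribonucleoproteins, such as Snrpe (0.97), Snrpg (0.80) and Snrpd2 (0.73), and SR proteins such as Srsf11 (0.59) and Srsf3 (0.55). Hnrnpul1 (-0.66) and Hnrnph3 (-0.56) fell. With the trend removed, 22 splicing factors rose and 1 fell. With 1 mouse left out, adjusted p passed 0.05 for Hnrnpul1 (0.0662 without replicate 7 at 28m, lost in 11 of 15 such fits). Removing the trend ended the call of Hnrnpul1 and Snrpg.

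The constitutive proteasome, the barrel and cap that degrade ubiquitin-tagged protein, rose as a whole. Of 34 tested subunits, 33 rose, 0 fell and 1 did not pass, with a median of 0.64, and in 27 of them the age groups did not overlap. With the trend removed, 29 rose and 0 fell, with a median of 0.39. Psmb4, a subunit of the core, ranged from 110.3 to 125 CPM at 6m (median 116) and from 141 to 350.1 CPM at 28m (median 217). All 8 old mice lay above the 6m range, with replicate 3 highest and replicate 8 lowest (log2 fold change 1.01, standard error 0.16, adjusted p = 0.000536). Core subunits such as Psmb1 (0.90) and Psma7 (0.86) and lid or base subunits such as Psmd4 (0.82) and Psmc1 (0.76) rose by similar amounts, and Psmd2 (0.18) was the only tested subunit that did not pass.

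For the ligases named for muscle atrophy the balance of calls turned with the trend removal. Of 12 atrophy ligases and Foxo factors, 0 rose, 4 fell and 8 did not pass as fitted (with 1 mouse left out, 1 higher without replicate 3 at 6m, as few as 2 lower), with a median of -0.33, and with the trend removed 2 rose and 1 fell, with a median of -0.08. Fbxo32, known as atrogin-1, ranged from 457 to 639 CPM at 6m (median 557) and from 232 to 584 CPM at 28m (median 456), and Trim63, known as MuRF1, ranged from 198 to 266 CPM at 6m (median 210.0) and from 194 to 379 CPM at 28m (median 248). The ages overlapped in both, and neither passed (Fbxo32 log2 fold change -0.31, adjusted p = 0.113, and Trim63 log2 fold change 0.26, adjusted p = 0.130). Foxo3, a transcription factor that can switch on both, fell (-1.24), with 0.822, 1.04 and 1.17 CPM in replicates 5, 3 and 7 and 10.5 and 11.6 in replicates 8 and 4, which lay inside the 6m range. Leaving out 1 mouse ended the call of Foxo3 (0.0648 without replicate 2 at 28m, lost in 11 of 15 such fits). No longer past the threshold without the trend was Foxo3.

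Of 21 autophagy and lysosome genes, 7 rose, 2 fell and 12 did not pass, and with the trend removed 11 rose and 2 fell. The genes that rose include those whose proteins are conjugated to the growing autophagosome or act as cargo receptors, Map1lc3a (1.04), Map1lc3b (0.41) and Sqstm1 (0.30), and the lysosomal protease Ctsl (0.66). Both genes that fell encode the kinases that start the process, Ulk1 (-0.69) and Ulk2 (-0.77). Map1lc3a ranged from 158 to 218 CPM at 6m (median 176) and from 214 to 509 CPM at 28m (median 394) (log2 fold change 1.04, standard error 0.17, adjusted p = 0.000561). Replicate 8 was the only old mouse inside the 6m range.

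As fitted, most genes against oxidative damage rose. Of 24, 16 rose, 2 fell and 6 did not pass, with a median of 0.54, and 9 rose and 1 fell with the trend removed. Gpx4, which reduces lipid peroxides, ranged from 137 to 161 CPM at 6m (median 152) and from 189 to 382 CPM at 28m (median 264) and did not overlap between ages (log2 fold change 0.86, standard error 0.13, adjusted p = 0.000411). Sod1, the cytosolic superoxide dismutase, rose by 0.80 on the log2 scale, and its mitochondrial relative Sod2 fell (-0.29 as fitted and 0.05 with the trend removed). The metallothioneins Mt1 (1.40) and Mt2 (1.99) had the largest rises in the list, but with overlap, since 3 of 8 old mice exceeded all 6m mice in Mt2. Gclc, the catalytic subunit of the limiting enzyme of glutathione synthesis, fell (-0.39). After removal of the trend, adjusted p was over 0.05 for Mt1, Mt2 and Sod2.

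Of 20 endoplasmic reticulum and integrated stress genes, 9 rose, 2 fell and 9 did not pass (with the trend removed, 5 rose and 0 fell, and with 1 mouse left out, as few as 1 lower), led by Atf3 (1.0), Asns (0.70) and Xbp1 (0.44). The translation-driven factor Atf4 (0.26) and its partner Ddit3 (0.37) did not pass, and Ern1, the stress sensor, fell (-1.21). Of 16 cytosolic chaperones, 5 rose, 1 fell and 10 did not pass (with the trend removed, 1 rose and 1 fell). Hspb7, a small heat-shock protein of the sarcomere, rose most (log2 fold change 1.35, standard error 0.29, adjusted p = 0.00232), with 1113 CPM in replicate 6 and 226 and 264 CPM in replicates 2 and 3, which overlapped the 6m range up to 322 CPM. The large chaperone Hsph1 fell (-0.78). The stress-induced Hspa1a (0.66) and Hspa1b (0.76) did not pass. Calls lost when 1 mouse was left out were those of Ern1 (0.0694 without replicate 2 at 28m, lost in 11 of 15 such fits). The calls of Atf3 and Ern1 did not hold with the trend removed.

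Nuclear genes for the respiratory chain and for mitochondrial translation mostly rose as fitted, and fewer did so once the length trend was removed. Complex I rose in 32 of 36 subunits, complexes III and IV in 20 of 24, ATP synthase in 14 of 17, the import machinery in 15 of 20 and mitochondrial ribosomal proteins in 60 of 76. Their medians were 0.59, 0.64, 0.50, 0.45 and 0.46, and only the mitochondrial ribosome held a member that fell, Mrps2 (-0.21). The median exonic length of the complex III and IV subunits was 1172 bases, against 4489.5 over all genes tested. With the trend removed, 12 complex I, 2 complex III and IV and 6 ATP synthase genes rose, and the medians came to 0.15, 0.05 and 0.27. Of the import and mitochondrial ribosome genes, 8 and 28 then rose, and 1 ATP synthase, 1 import and 4 mitochondrial ribosome genes fell. Adjusted p was over 0.05 with 1 mouse left out for Mrps2 (0.0922 without replicate 3 at 6m, lost in 12 of 15 such fits).

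Cox6a2, the muscle form of a cytochrome oxidase subunit, ranged from 539.6 to 778 CPM at 6m (median 673) and from 674 to 1546 CPM at 28m (median 1031) (log2 fold change 0.65, standard error 0.16, adjusted p = 0.00461). Replicate 8 lay within the 6m range and replicate 7 stood highest, and with the trend removed the log2 fold change was 0.00. Ndufa2, of complex I, ranged from 109 to 129 CPM at 6m (median 119.5) and from 123 to 359 CPM at 28m (median 208), with replicates 4 and 8 again inside the 6m range. Removing the trend ended the call of Cox6a2.

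More regulators of mitochondrial content fell than rose. Of 17 genes for biogenesis and dynamics, 2 rose, 9 fell and 6 did not pass (with 1 mouse left out, as few as 1 higher), and with the trend removed 3 rose and 7 fell. Ppargc1a, the coactivator PGC-1alpha, ranged from 49.2 to 63.8 CPM at 6m (median 56.5) and from 32.4 to 45.3 CPM at 28m (median 42.5). The groups did not overlap (log2 fold change -0.44, standard error 0.08, adjusted p = 0.00126). The nuclear receptors Esrrb (-0.81), Esrrg (-0.47), Ppara (-0.73) and Ppard (-0.64) and the fusion genes Opa1 (-0.54) and Mfn2 (-0.39) fell as well, while the fission gene Fis1 (0.78) rose. With 1 mouse left out, adjusted p passed 0.05 for Mfn2 (0.0524 without replicate 1 at 6m, lost in 2 of 15 such fits). No longer past the threshold without the trend was Mfn2.

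Genes of the citrate cycle, fatty acid oxidation and glycolysis were called no more often, both directions together, than the 47.3% of all genes tested. Of 21 genes of the citrate cycle and pyruvate dehydrogenase, 6 rose, 3 fell and 12 did not pass (with the trend removed, 3 rose and 1 fell, and with 1 mouse left out, as few as 3 higher, 0 lower without replicate 7 at 6m and replicate 2 at 28m, 5 lower without replicate 6 at 28m). The succinate dehydrogenase subunits Sdhb (0.50) and Sdhc (0.48) rose, and Pdha1 (-0.37) and Ogdh (-0.43), catalytic subunits of the pyruvate and oxoglutarate complexes, fell. Of 21 genes for fatty acid uptake and oxidation, 6 rose, 3 fell and 12 did not pass (with the trend removed, 3 rose and 2 fell, and with 1 mouse left out, as few as 3 higher), with Echs1, the enoyl-CoA hydratase, above the 6m range in all 8 old mice (0.62) and Cpt1b, the gate for fatty acids into mitochondria, lower (-0.89). The level of Cpt1b was low, with 1.77 CPM in the lowest 6m mouse and 2.81 in the next. Of 11 genes of glycolysis, 2 rose, 0 fell and 9 did not pass (with the trend removed, 3 rose and 0 fell, and with 1 mouse left out, 1 higher without replicate 3 at 6m, as many as 5 higher, as many as 1 lower), and those that rose were Tpi1 (0.34) and Gapdh (0.26). Leaving out 1 mouse ended the call of Ogdh (0.0536 without replicate 2 at 28m, lost in 3 of 15 such fits), Pdha1 (0.0636 without replicate 3 at 28m, lost in 8 of 15 such fits) and Tpi1 (0.0519 without replicate 3 at 6m). After removal of the trend, adjusted p was over 0.05 for Ogdh, Sdhb and Tpi1.

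Of 11 genes of glycogen metabolism, 1 rose, 4 fell and 6 did not pass (with the trend removed, 1 rose and 4 fell). Pygm, the phosphorylase that breaks glycogen down, ranged from 9183 to 10354 CPM at 6m (median 10132) and from 5738 to 9117 CPM at 28m (median 7509), with no overlap (log2 fold change -0.43, standard error 0.10, adjusted p = 0.00355). Phka1, a subunit of the kinase that activates it, fell further (-0.87), to below the 6m range in all 8 mice, whereas the branching enzyme Gbe1 rose (0.46).

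Of 17 genes for fatty acid synthesis, 1 rose, 8 fell and 8 did not pass (with the trend removed, 1 rose and 5 fell), among them the regulators Srebf1 (-0.62) and Mlxipl (-0.62) and the enzymes Scd2 (-1.04), Fads2 (-1.05) and Acacb (-0.81). Scd2, a desaturase, was below the 6m range in all 8 old mice. Thrsp rose (1.05). Of 21 sterol genes, 5 rose, 7 fell and 9 did not pass (with the trend removed, 5 rose and 5 fell), shares near those of all genes tested, with the early enzymes Mvd (0.97), Fdps (0.49) and Mvk (0.50) higher and the regulator Srebf2 (-0.69) lower. The call of Srebf1 did not hold with the trend removed.

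As fitted, more extracellular matrix genes fell than rose in each of the 5 classes examined, and in the basement membrane most members fell. With the trend removed this held in 4 classes, the fibrillar collagens being the exception. Of 18 tested basement membrane genes (of 19 in the table), 0 rose, 15 fell and 3 did not pass, with a median of -1.05, and in 8 of them every old mouse lay below every 6m mouse. With the trend removed, 0 rose and 11 fell, with a median of -0.67. Hspg2, or perlecan, ranged from 263 to 349 CPM at 6m (median 301) and from 50.3 to 172 CPM at 28m (median 102) (log2 fold change -1.49, standard error 0.24, adjusted p = 0.000563). Old mice clustered well under the 6m range, with replicate 3 lowest and replicate 8 highest.

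The network collagens Col4a1 (-1.24) and Col4a2 (-1.29), the laminin chains Lamc1 (-1.12), Lama2 (-1.02) and Lama4 (-0.87) and the nidogens Nid1 (-1.21) and Nid2 (-0.84), which link laminin to type IV collagen, fell together. Lamc1, the chain shared by most laminins, ranged from 94.5 to 156 CPM at 6m (median 107) and from 34.2 to 75.8 CPM at 28m (median 53.8). Col4a5 (-0.69) and agrin, Agrn (-0.39), did not pass. Leaving out 1 mouse at a time left between 15 and 16 genes lower. Removing the trend ended the call of Lama4.

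Of 10 fibrillar collagen genes, 0 rose, 6 fell and 4 did not pass (with 1 mouse left out, 2 lower without replicate 2 at 6m), with a median of -1.10, or -0.66 without replicate 2 at 6m. Col1a1, the main chain of type I collagen, ranged from 62.8 to 737 CPM at 6m (median 123) and from 12.4 to 152 CPM at 28m (median 34.6). Replicate 2 at 6m, with 737 CPM, stood far above its group, and replicates 5, 6 and 7 at 28m lay inside the 6m range (log2 fold change -1.88, standard error 0.59, adjusted p = 0.0160). In the trend-removed fit 2 rose and 2 fell. Col5a1, which starts fibril assembly, fell under both settings (-1.44 as fitted and -0.97 with the trend removed). Calls lost when 1 mouse was left out were those of Col1a1 (0.0729 without replicate 2 at 6m). No longer past the threshold without the trend was Col1a1.

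Of 14 genes that modify and cross-link collagen, 0 rose, 9 fell and 5 did not pass (with the trend removed, 0 rose and 5 fell), including the lysyl oxidases Loxl1 (-0.69) and Loxl2 (-1.17) and the collagen chaperone Serpinh1 (-0.59). Of 16 matrix proteases and inhibitors, 1 rose, 7 fell and 8 did not pass (with the trend removed, 1 rose and 5 fell). The rise was that of Timp1, an inhibitor of metalloproteinases, with 11.3 and 8.46 CPM in replicates 7 and 6 and values within the 6m range of 0.393 to 1.60 CPM in replicates 1, 2, 3 and 8 (log2 fold change 2.43, standard error 0.66, adjusted p = 0.00774). Among the genes that fell were Mmp15 (-1.07), Mmp9 (-1.23) and Adamts2 (-1.06). Of 17 proteoglycans, 0 rose, 5 fell and 12 did not pass (with the trend removed, 0 rose and 5 fell, and with 1 mouse left out, as few as 2 lower). Adjusted p was over 0.05 with 1 mouse left out for Serpinh1 (0.106 without replicate 2 at 6m, lost in 7 of 15 such fits).

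**Figure D3:**
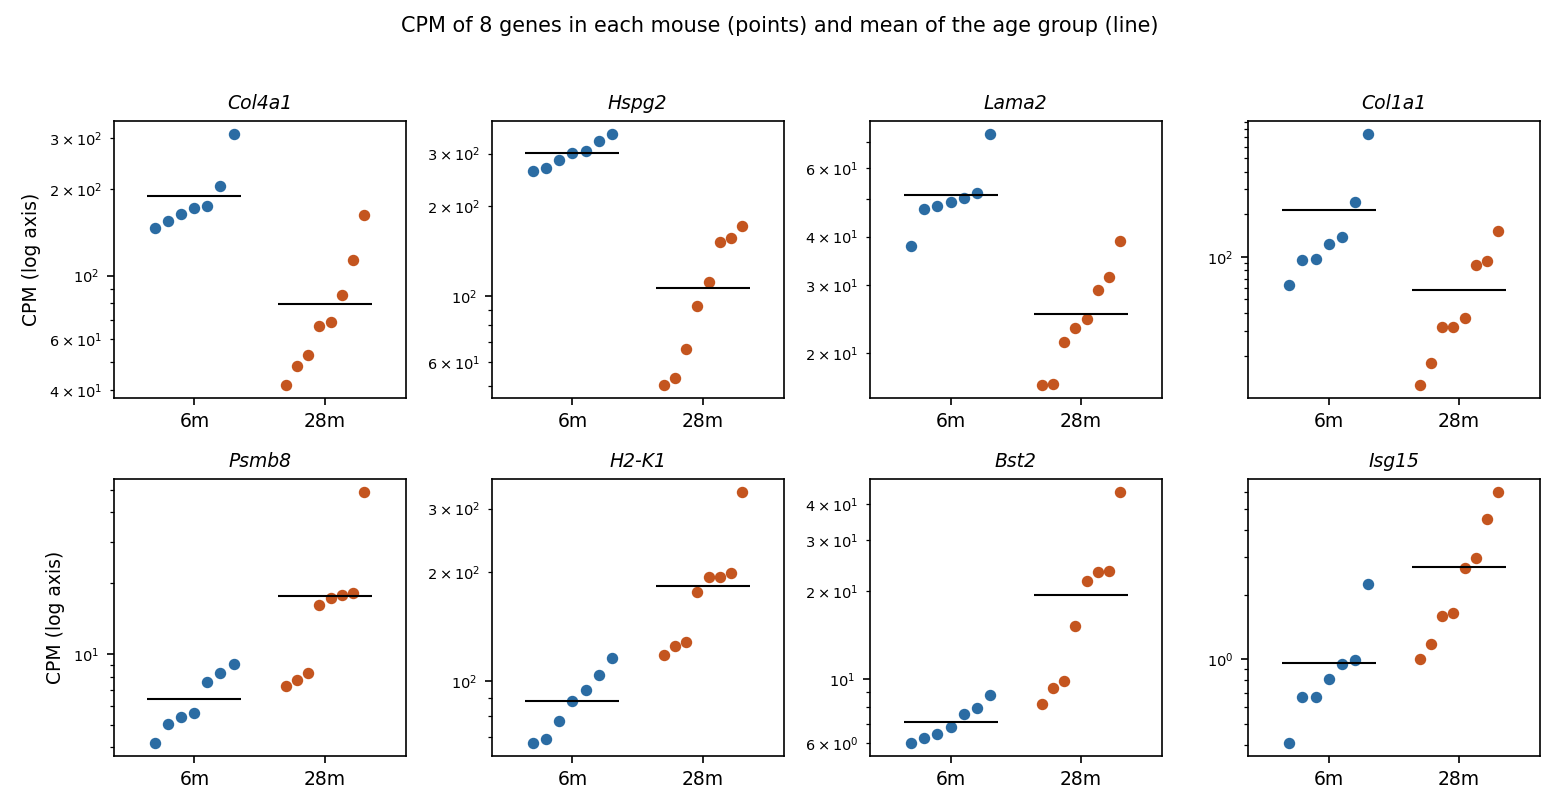
CPM of 4 matrix genes and 4 genes of antigen presentation and interferon response in each mouse (points, sorted within an age) with the mean of the age group (line), on a log axis. Hspg2 is lower in all 8 old mice, Col1a1 has 1 mouse at 6m with 737 CPM, and H2-K1 is higher in all 8.

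Markers of fibroblasts, endothelium and pericytes fell more often than they rose, with exceptions inside each list. Of 13 fibroblast and fibro-adipogenic progenitor markers, 1 rose, 6 fell and 6 did not pass (with the trend removed, 0 rose and 4 fell, and with 1 mouse left out, as few as 0 higher), with a median of -0.64, and the mean over the list ranged from -1.06 to 0.13 in old mice. Pdgfra, the receptor that defines these cells, ranged from 18.4 to 43.9 CPM at 6m (median 22.3) and from 8.92 to 17.1 CPM at 28m (median 13.3) and did not overlap (log2 fold change -0.92, standard error 0.19, adjusted p = 0.00166). Fbn1, the microfibril protein fibrillin, fell furthest (-1.55), and Dcn, or decorin, did not pass (-0.15). In replicate 5 the mean over the list was 0.13 and thus not below 6m. Of 9 tendon markers, 1 rose, 2 fell and 6 did not pass (with the trend removed, 1 rose and 2 fell, and with 1 mouse left out, as few as 1 lower). The tendon regulator Scx rose (1.07) and Chad fell (-1.69), with the mean over the list from -1.88 to 0.70 at 28m. After removal of the trend, adjusted p was over 0.05 for Pdgfra.

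Of 13 endothelial markers, 2 rose, 7 fell and 4 did not pass. The receptors Kdr (-1.29), Flt1 (-0.93), Tek (-0.80) and Tie1 (-0.63), for vascular growth factors and angiopoietins, and the junction gene Cdh5 (-0.87) fell. Kdr, the main receptor for VEGF-A, ranged from 68.1 to 89.8 CPM at 6m (median 73.0) and from 14.8 to 44.4 CPM at 28m (median 32.9), without overlap (log2 fold change -1.29, standard error 0.19, adjusted p = 0.000389). Egfl7 (0.48) and Cldn5 (0.73) rose, a secreted factor and a tight-junction protein. The trend-removed fit had 1 that rose and 5 that fell, with a median of -0.05. Of 11 smooth muscle and pericyte markers, 2 rose, 6 fell and 3 did not pass (with the trend removed, 0 rose and 5 fell, and with 1 mouse left out, 1 higher without replicate 5 at 28m and replicate 7 at 28m), with Rgs5 (-1.23), Notch3 (-1.03) and Pdgfrb (-0.49) lower, which mark pericytes, and Tagln (0.58) higher. Rgs5 had 134 CPM in replicate 8, inside the 6m range, and 15.8 and 18.5 in replicates 7 and 3. The calls of Cldn5 and Tagln did not hold with the trend removed.

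Of 12 Schwann cell and myelin markers, 1 rose, 0 fell and 11 did not pass (with the trend removed, 2 rose and 0 fell, and with 1 mouse left out, 2 higher without replicate 4 at 28m, as many as 1 lower). Of 8 adipocyte markers, 2 rose, 0 fell and 6 did not pass (with the trend removed, 1 rose and 0 fell, and with 1 mouse left out, as few as 1 higher, as many as 4 higher), namely Fabp4 (0.76) and Retn (1.63). Fabp4, also made by capillary cells, ranged from 138 to 154 CPM at 6m (median 151) and from 137 to 427 CPM at 28m (median 246). The mean over the adipocyte list ranged from -1.44 to 1.69 in old mice and from -0.66 to 0.76 at 6m. With 1 mouse left out, adjusted p passed 0.05 for Retn (0.0736 without replicate 7 at 28m, lost in 5 of 15 such fits). Removing the trend ended the call of Retn.

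As fitted, satellite cell markers either fell or did not pass. Of 9, 0 rose, 3 fell and 6 did not pass (with the trend removed, 1 rose and 3 fell). Pax7, the factor that defines these stem cells, ranged from 1.57 to 3.20 CPM at 6m (median 2.43) and from 0 to 1.76 CPM at 28m (median 0.635) (log2 fold change -1.60, standard error 0.43, adjusted p = 0.00718), and no read was counted in replicate 3. Heyl, a Notch target in quiescent cells, fell in all 8 mice (-0.87), and Chodl fell (-0.61). The commitment factor Myf5 did not pass (-0.19).

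Contractile genes of both fibre types included members that rose. Of 10 slow-fibre genes, 4 rose, 1 fell and 5 did not pass, with Myl2 (1.48), Tnni1 (1.31), Tnnc1 (1.16) and Tnnt1 (1.0) higher from levels of a few CPM, and Myh7 at 0.24. Of 13 fast-fibre genes, 6 rose, 1 fell and 6 did not pass (with 1 mouse left out, 3 lower without replicate 6 at 28m). The thin-filament and light-chain genes Mylpf (0.93), Tnni2 (0.80), Tnnc2 (0.67) and Tnnt3 (0.47) and Pvalb (0.62) rose, and Myh4 fell (-0.48). Mylpf, the regulatory light chain, ranged from 5014 to 6741 CPM at 6m (median 5813) and from 7114 to 14861 CPM at 28m (median 10636) without overlap (log2 fold change 0.93, standard error 0.16, adjusted p = 0.000648). With the trend removed, 4 slow-fibre and 2 fast-fibre genes rose and none fell, and Myh4 no longer passed (-0.27). Leaving out 1 mouse ended the call of Tnni1 (0.0592 without replicate 6 at 28m, lost in 6 of 15 such fits). No longer past the threshold without the trend were Myh4, Pvalb, Tnnc2, Tnnt1 and Tnnt3.

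Of 26 structural sarcomere genes, 3 rose, 5 fell and 18 did not pass (with the trend removed, 4 rose and 3 fell, and with 1 mouse left out, 8 lower without replicate 4 at 28m). Tcap, the cap of titin at the Z-disc, ranged from 1788 to 2812 CPM at 6m (median 2319.7) and from 3054 to 6848 CPM at 28m (median 4664), and every old mouse lay above every 6m mouse (log2 fold change 1.08, standard error 0.17, adjusted p = 0.000536). The intermediate filament Des (0.64) rose too. The giant proteins Ttn (-0.72) and Neb (-0.75) fell, and with the trend removed their log2 fold changes were -0.15 and -0.21. Xirp2, an actin-binding protein of the same region, fell in all 8 old mice under both settings (-0.91 as fitted and -0.55 with the trend removed). After removal of the trend, adjusted p was over 0.05 for Neb and Ttn.

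Of 17 genes of the dystrophin complex and costamere, 1 rose, 6 fell and 10 did not pass (with 1 mouse left out, as many as 2 higher), and 2 rose and 6 fell with the trend removed. Nos1, the neuronal nitric oxide synthase that the complex holds at the membrane, ranged from 79.6 to 120.1 CPM at 6m (median 104) and from 1.89 to 58.4 CPM at 28m (median 10.1) (log2 fold change -2.41, standard error 0.59, adjusted p = 0.00470). All old mice lay below the 6m range, but unevenly, with 1.89, 3.04, 4.33 and 4.36 CPM in replicates 3, 7, 5 and 2 and 41.2 and 58.4 in replicates 4 and 8. Dag1, or dystroglycan, the laminin receptor, ranged from 212 to 236 CPM at 6m (median 215) and from 25.5 to 201 CPM at 28m (median 81.9) in nearly the same order of mice, and no old mouse reached the 6m range (-1.19). Sgcd (-1.21) and Sspn (-0.74) fell, while dystrophin, Dmd (-0.25), did not pass and Sgca rose (0.29 as fitted and -0.01 with the trend removed). The call of Sgca did not hold with the trend removed.

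Of 19 genes of excitation-contraction coupling, 6 rose, 6 fell and 7 did not pass (with the trend removed, 6 rose and 1 fell). The calcium release channel Ryr1 (-0.74) and its voltage sensor Cacna1s (-0.57) fell as fitted and not with the trend removed (-0.12 and -0.34), and Trdn, which holds calsequestrin to the channel, rose under both (0.55 and 0.86). Sln, which inhibits the calcium pump, had 222 CPM in replicate 6 and between 6.20 and 49.6 in the other old mice, against at most 8.46 at 6m (log2 fold change 4.29, standard error 0.86, adjusted p = 0.00157). Of 12 membrane excitability genes, 2 rose, 5 fell and 5 did not pass (with the trend removed, 1 rose and 6 fell). Scn4a, the sodium channel of the muscle action potential, ranged from 608 to 782 CPM at 6m (median 739.9) and from 144 to 663 CPM at 28m (median 288), and Clcn1, the chloride channel that steadies the resting membrane, fell as well (-1.0). In both, replicates 3, 5 and 7 were lowest and replicates 4 and 8 highest. Calls lost when 1 mouse was left out were those of Cacna1s (0.0527 without replicate 5 at 28m, lost in 4 of 15 such fits). Removing the trend ended the call of Cacna1s and Ryr1.

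Most genes that fibres make after losing their nerve rose. Of 10, 7 rose, 0 fell and 3 did not pass (with 1 mouse left out, as many as 1 lower), with a median of 1.84, and with the trend removed 8 rose and 0 fell, with a median of 1.71. Gadd45a, a stress-response gene that denervation induces in fibres, ranged from 13.9 to 24.3 CPM at 6m (median 18.7) and from 39.3 to 169 CPM at 28m (median 60.6) and separated the ages fully (log2 fold change 2.11, standard error 0.30, adjusted p = 0.000346). Cdkn1a, the cell cycle inhibitor p21, also separated them, with values from 5.85 to 18.2 CPM at 6m (median 10.8) and from 24.7 to 134 CPM at 28m (median 39.7) (log2 fold change 2.20, standard error 0.37, adjusted p = 0.000678). Replicate 6 was highest in both.

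The transcription factors Runx1 (log2 fold change 1.60, standard error 0.39, adjusted p = 0.00426) and Myog (log2 fold change 2.09, standard error 0.46, adjusted p = 0.00248) overlapped with 6m in 3 of 8 old mice each. Runx1 had 30.7 CPM in replicate 6 and 4.64, 4.81 and 5.50 in replicates 3, 2 and 1. Chrng, the fetal receptor subunit, was at or under 1.01 CPM at 6m and reached 13.9 CPM in replicate 6 (log2 fold change 3.52, standard error 0.81, adjusted p = 0.00322). The histone deacetylases Hdac4 (-0.72) and Hdac9 (0.11) did not pass.

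Replicates 1, 2 and 3 had the lowest means over the denervation list, 0.57, 0.55 and 0.26 relative to 6m, and replicate 6 the highest, 2.83. Replicates 4 and 8, which stood nearest to 6m in Nos1, Scn4a and the length trend, had means of 1.56 and 1.71 over the denervation list, the highest after replicate 6 as fitted. The 6m mice ranged from -0.39 to 0.65, and 5 of 8 old mice were above all of them. With the trend removed, the means of replicates 4 and 8 were 1.61 and 1.77, and those of replicates 5 and 7 were 1.65 and 1.71.

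Of 12 genes of the postsynaptic membrane, 3 rose, 2 fell and 7 did not pass (with the trend removed, 1 rose and 1 fell). The receptor subunits Chrna1 (1.84), Chrnb1 (0.68) and Chrne (0.50) rose, of which Chrne belongs to the adult receptor. Chrna1 ranged from 11.0 to 21.7 CPM at 6m (median 11.7) and from 17.8 to 191 CPM at 28m (median 32.4) (log2 fold change 1.84, standard error 0.46, adjusted p = 0.00489), and replicate 6 had 191 CPM. The agrin receptor Lrp4 (-0.61) and utrophin, Utrn (-0.86), fell, and Musk (-0.62), Rapsn (0.15) and Colq (0.05) did not pass. No longer past the threshold without the trend were Chrnb1, Chrne and Lrp4.

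Of 9 genes of embryonic and regenerating fibres, 2 rose, 0 fell and 7 did not pass (with the trend removed, 3 rose and 0 fell, and with 1 mouse left out, 5 higher without replicate 2 at 6m), namely Myog (2.09) and Tnnt2 (1.27). The embryonic myosin Myh3 (0.72) and the perinatal myosin Myh8 (0.57) did not pass, and Myh3 had 27.2 CPM in replicate 2 at 6m, against a median of 5.05 CPM in that group. The list mean of that mouse, 1.69 relative to 6m, exceeded all old mice except replicate 6 (2.21).

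**Figure D4:**
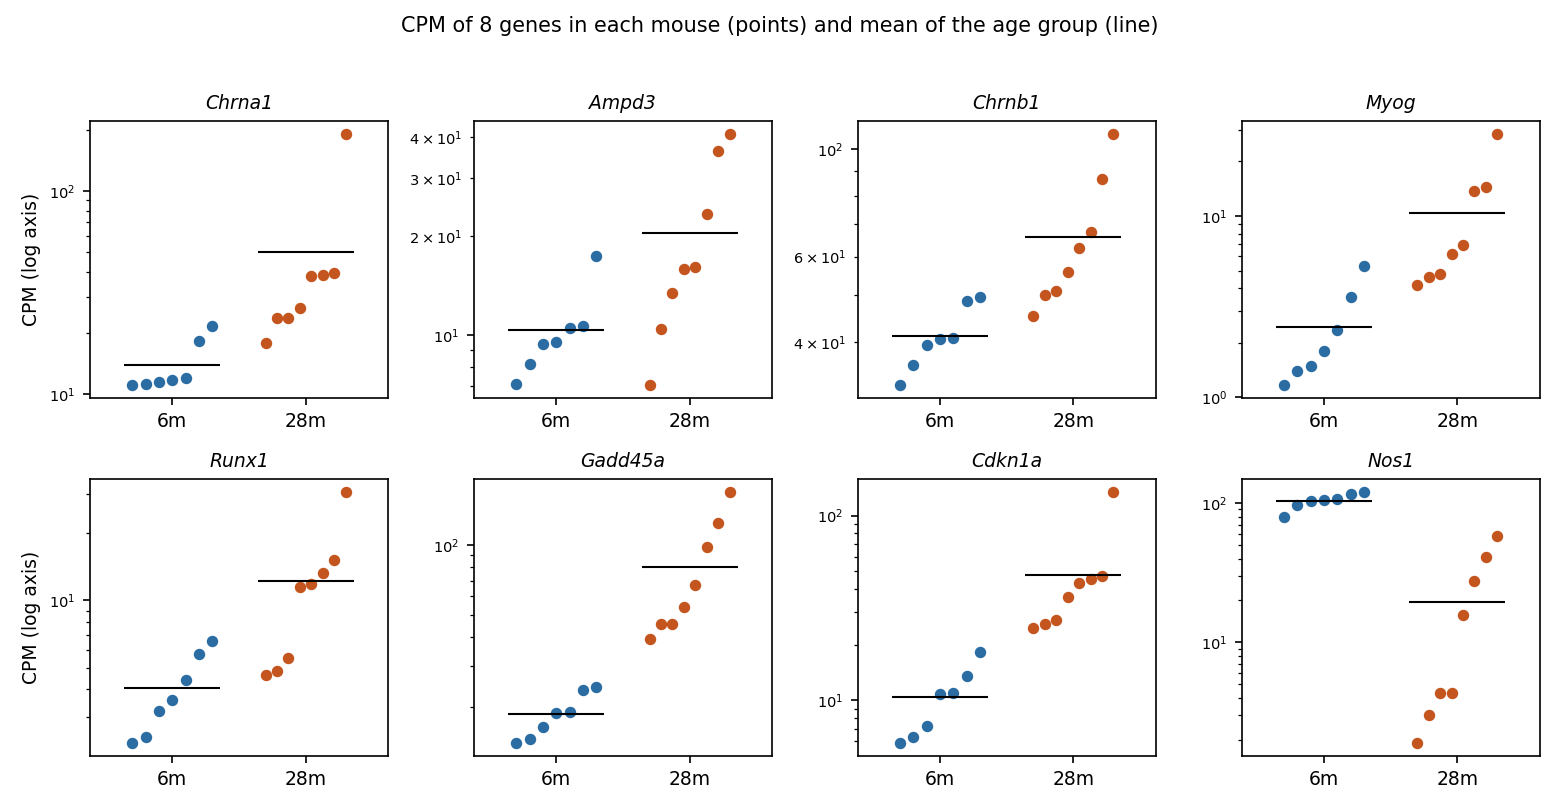
CPM of 7 denervation and synapse genes and of Nos1 in each mouse (points, sorted within an age) with the mean of the age group (line), on a log axis. Gadd45a and Cdkn1a separate the ages, Chrna1 spreads from 17.8 to 191 CPM at 28m, and Nos1 lies below 79.6 CPM in all old mice.

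Of 23 tested genes that interferons switch on (of 24 in the table), 12 rose, 0 fell and 11 did not pass, with a median of 0.80, and 11 rose and 0 fell with the trend removed. Promoter windows of 300 bases around the transcription start, from RefSeq on GRCm38.p6, were searched on both strands for the interferon-stimulated response element as GAAA, any 2 bases and GAAA. They were present for 17 of the 23 genes, and 12 of these (70.6%) held the motif, against 342 of 9316 (3.67%) over all genes tested. The element is named for such genes, so this share is a description of the list. A gene counted as holding the motif if any of its windows did. Among members with a window, 7 of 9 that rose held it, and so did 5 of 8 that were not called. The 5 windows shown are those of members that rose and hold at least 2 matches, and a further window of Gbp3 without a match is left out. Capitals mark the matched bases, with overlapping matches run together, which on the opposite strand read TTTC, any 2 bases and TTTC. In the order below they lie at chr4:156200769-156201068 (minus strand), chr19:34640639-34640938 (plus), chr19:34583279-34583578 (plus), chr8:71537423-71537722 (minus) and chr3:142559794-142560093 (plus), each written 5′ to 3′ on the gene's strand.
Isg15: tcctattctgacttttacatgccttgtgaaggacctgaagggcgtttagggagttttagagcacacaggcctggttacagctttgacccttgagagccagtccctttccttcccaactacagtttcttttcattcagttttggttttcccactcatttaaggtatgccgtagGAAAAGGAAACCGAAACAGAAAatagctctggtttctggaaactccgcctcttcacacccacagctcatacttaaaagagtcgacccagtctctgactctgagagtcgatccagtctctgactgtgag
Ifit1: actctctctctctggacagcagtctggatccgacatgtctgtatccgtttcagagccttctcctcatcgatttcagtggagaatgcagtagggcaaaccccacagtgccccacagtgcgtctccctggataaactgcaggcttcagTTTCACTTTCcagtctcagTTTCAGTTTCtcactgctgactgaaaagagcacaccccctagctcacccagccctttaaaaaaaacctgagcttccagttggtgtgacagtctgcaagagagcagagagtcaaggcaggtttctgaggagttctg
Ifit3: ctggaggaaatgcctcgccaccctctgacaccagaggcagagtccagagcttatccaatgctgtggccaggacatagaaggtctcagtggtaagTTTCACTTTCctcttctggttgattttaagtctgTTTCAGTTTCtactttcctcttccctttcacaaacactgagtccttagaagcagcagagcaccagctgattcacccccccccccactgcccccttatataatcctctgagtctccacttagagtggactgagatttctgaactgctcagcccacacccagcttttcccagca
Bst2: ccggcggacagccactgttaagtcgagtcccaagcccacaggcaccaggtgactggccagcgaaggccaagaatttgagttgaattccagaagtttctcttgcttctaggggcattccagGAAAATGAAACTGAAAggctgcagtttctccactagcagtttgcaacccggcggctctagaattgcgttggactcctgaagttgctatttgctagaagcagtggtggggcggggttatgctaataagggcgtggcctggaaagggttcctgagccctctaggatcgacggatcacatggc
Gbp3: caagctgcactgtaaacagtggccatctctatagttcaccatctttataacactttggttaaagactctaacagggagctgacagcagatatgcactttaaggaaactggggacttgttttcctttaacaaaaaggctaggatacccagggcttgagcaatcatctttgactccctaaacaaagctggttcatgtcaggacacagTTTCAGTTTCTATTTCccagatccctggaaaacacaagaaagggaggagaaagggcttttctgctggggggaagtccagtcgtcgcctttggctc

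Bst2, or tetherin, which holds budding virus at the cell surface, ranged from 6.00 to 8.80 CPM at 6m (median 6.80) and from 8.16 to 43.9 CPM at 28m (median 18.5) (log2 fold change 1.44, standard error 0.31, adjusted p = 0.00211). Replicate 4 alone lay inside the 6m range, and replicate 3 was highest. Isg15, a ubiquitin-like modifier, ranged from 0.407 to 2.23 CPM at 6m (median 0.807) and from 1.01 to 6.01 CPM at 28m (median 2.15) (log2 fold change 1.47, standard error 0.42, adjusted p = 0.00966), with 4 of 8 old mice above all 6m mice. Irf7 (1.16), Gbp3 (1.27) and Ifit1 (1.23), a transcription factor, a guanylate-binding protein and a sensor of foreign RNA, rose as well. The signal transducer Stat2 (0.05) and the RNA sensor Ifih1 (0.07) did not pass. After removal of the trend, adjusted p was over 0.05 for Isg15.

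Genes of antigen presentation by MHC class I mostly rose. Of 12 genes, 10 rose, 0 fell and 2 did not pass, with a median of 0.90, and with the trend removed 8 rose and 0 fell, with a median of 0.61. The heavy chain H2-K1 ranged from 67.5 to 116 CPM at 6m (median 88.1) and from 118 to 333 CPM at 28m (median 186) and did not overlap (log2 fold change 1.06, standard error 0.20, adjusted p = 0.00122), though class I genes share sequence, so single members are uncertain. The immunoproteasome subunits Psmb8 (1.45), Psmb9 (1.18) and Psmb10 (0.90), which replace constitutive ones, the activator Psme2 (0.90) and the peptide transporter Tap1 (0.91) rose. Psmb8 ranged from 4.17 to 9.07 CPM at 6m (median 5.62) and from 7.29 to 48.8 CPM at 28m (median 16.7). Replicate 3 had 48.8 CPM and replicates 4, 6 and 8 lay inside the 6m range (log2 fold change 1.45, standard error 0.36, adjusted p = 0.00510). The class I regulator Nlrc5 (0.28) did not pass. Of 12 members, 10 had a promoter window and 2 of these held the motif.

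Class II and immune cell markers gave few calls. Of 7 class II genes, 1 rose, 0 fell and 6 did not pass (with the trend removed, 1 rose and 0 fell, and with 1 mouse left out, as few as 0 higher, 4 higher without replicate 2 at 6m), and of 15 complement genes, 0 rose, 2 fell and 13 did not pass (with the trend removed, 0 rose and 2 fell), with C3, the central component, lower in 7 of 8 old mice than in any 6m mouse (log2 fold change -1.14, standard error 0.23, adjusted p = 0.00166). Of 13 macrophage markers, 1 rose, 1 fell and 11 did not pass (with the trend removed, 0 rose and 1 fell, and with 1 mouse left out, as few as 0 higher, 4 higher without replicate 2 at 6m, 4 lower without replicate 7 at 28m). Their median of 0.52 was 0.08 without replicate 7 at 28m and 1.04 without replicate 2 at 6m. Lyz2, or lysozyme, ranged from 23.5 to 91.5 CPM at 6m (median 36.2) and from 37.4 to 375 CPM at 28m (median 48.2), and C1qa ranged from 7.02 to 20.7 CPM at 6m (median 9.66) and from 8.67 to 83.2 CPM at 28m (median 12.4). In both the top value belonged to replicate 7, and the other 7 old mice lay within the 6m range. The mean over the macrophage list was 2.32 relative to 6m in replicate 7 and between -0.44 and 0.18 in the others. Cd163, of resident macrophages, fell (-0.79).

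Of the other blood cell lists, those of neutrophils, B and plasma cells and T and NK cells were close to the detection limit. Mast cell and erythroid markers held 0.00167% and 0.00169% of counts at 6m. Of 8 neutrophil markers 4 were tested, of which 1 fell, Mmp9 (-1.23), and with the trend removed 1 fell and 0 rose. S100a8 ranged from 0.154 to 2.37 CPM at 6m (median 0.356) and from 0.411 to 7.72 CPM at 28m (median 1.36), again with replicate 7 highest. Of 6 mast cell markers, 0 rose, 2 fell and 4 did not pass (with the trend removed, 0 rose and 4 fell, and with 1 mouse left out, as few as 1 lower, 4 lower without replicate 7 at 28m), and the falls were those of the proteases Cpa3 (-0.93) and Tpsb2 (-0.56). Neither of the 2 tested B and plasma cell markers passed (with 1 mouse left out, 1 higher without replicate 1 at 6m). None of 12 T and NK cell markers passed the filter, with at most 8 counts in a 6m library and 52 in a 28m library. Of 2 erythroid genes tested, Alas2 and Slc4a1, neither passed. No B and plasma cell or erythroid gene passed with the trend removed either. Adjusted p was over 0.05 with 1 mouse left out for Tpsb2 (0.0778 without replicate 2 at 6m, lost in 10 of 15 such fits).

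**Figure D5:**
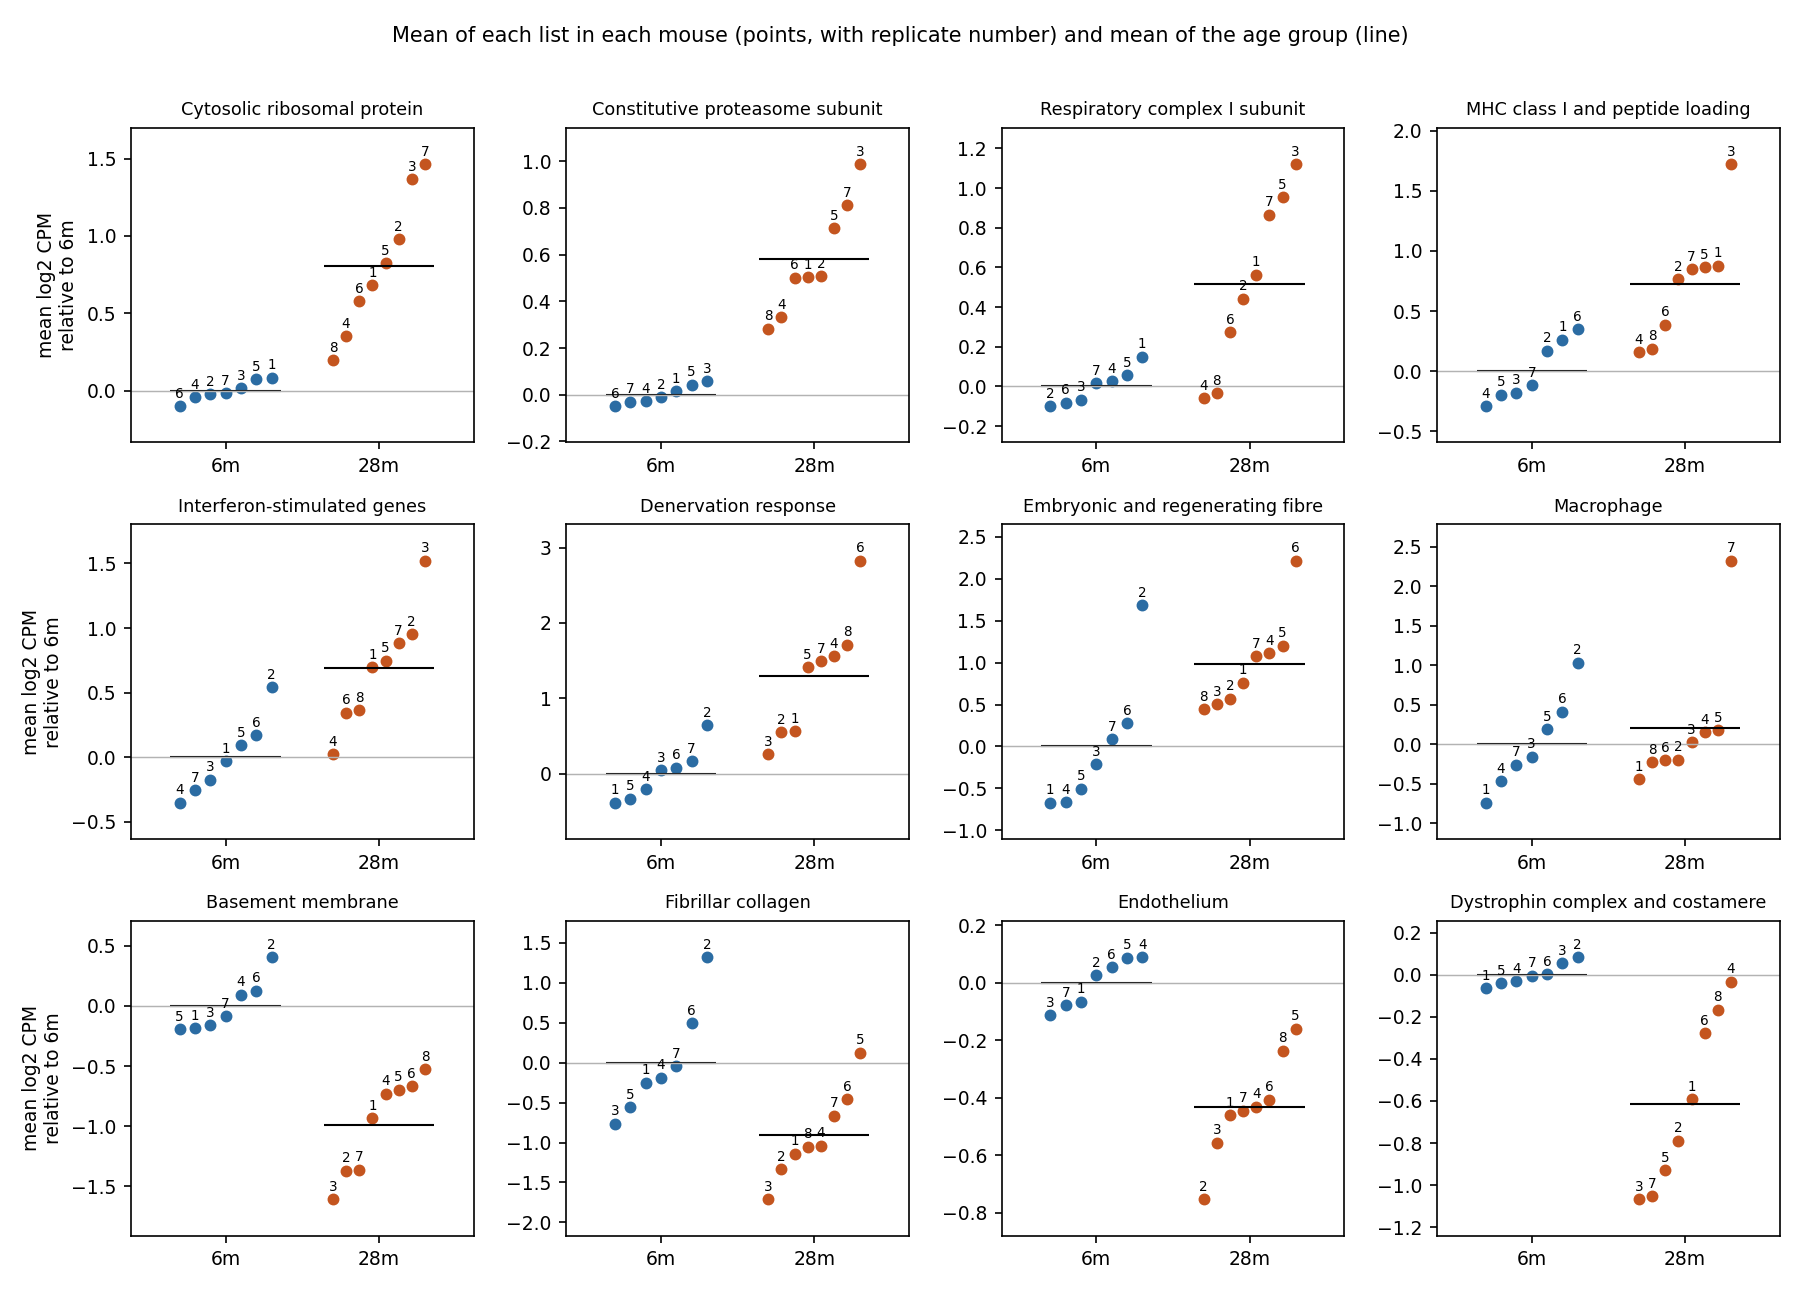
Mean log2 CPM of the tested members of 12 lists in each mouse, relative to the mean of the 6m mice (points, with replicate number, sorted within an age; line: mean of the age group). Ribosomal and proteasome means at 28m are lowest in replicates 4 and 8, denervation is highest in replicate 6 at 2.83, MHC class I in replicate 3 at 1.72 and macrophage markers in replicate 7 at 2.32.

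Of 13 tested cell cycle genes (of 19), 8 rose, 0 fell and 5 did not pass (with the trend removed, 7 rose and 0 fell, and with 1 mouse left out, as few as 5 higher, 1 lower without replicate 6 at 28m), and the other 6 were too low to test. Ccna2 (1.81), Top2a (1.56) and Rrm2 (1.35) rose, from under 1 CPM at 6m, and Ccna2 ranged from 0.153 to 0.458 CPM at 6m (median 0.307) and from 0.367 to 3.0 CPM at 28m (median 0.577). Its 3 highest mice were replicates 7, 5 and 6. Of 11 senescence genes, 4 rose, 0 fell and 7 did not pass (with the trend removed, 3 rose and 1 fell, and with 1 mouse left out, 1 lower without replicate 3 at 28m), with Cdkn1a (2.20), Ccl2 (2.03) and Cdkn2c (0.73) among those that rose. Ccl2, a monocyte attractant, had 18.4 CPM in replicate 7 and at most 1.94 elsewhere, and its smallest log2 fold change with 1 mouse left out was 0.63. Cdkn2a, which encodes p16, peaked at 12 counts at 6m and 37 at 28m and was not tested. With 1 mouse left out, adjusted p passed 0.05 for Ccl2 (0.252 without replicate 7 at 28m, lost in 6 of 15 such fits) and Top2a (0.103 without replicate 7 at 28m, lost in 9 of 15 such fits). The call of Ccl2 did not hold with the trend removed.

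Of 19 circadian clock genes, 2 rose, 7 fell and 10 did not pass (with the trend removed, 5 rose and 5 fell, and with 1 mouse left out, as few as 1 higher, 4 higher without replicate 7 at 6m). The activators Arntl (-1.38), Clock (-0.99) and Npas2 (-1.48) and the repressor Nr1d1 (-1.02) fell, the period genes Per1 (0.52) and Per2 (0.46) did not pass, and Cry2 (0.48) rose. Arntl ranged from 13.5 to 43.7 CPM at 6m (median 23.3) and from 5.23 to 19.1 CPM at 28m (median 7.39), with replicate 3 alone inside the 6m range (log2 fold change -1.38, standard error 0.29, adjusted p = 0.00195). The time of day of collection is not given in the sources used here, so whether it differed between ages was not tested. Of 14 genes that respond to glucocorticoids, 7 rose, 1 fell and 6 did not pass (with the trend removed, 6 rose and 1 fell), with Cebpb (1.05), Cebpd (1.08) and Ddit4 (1.09) higher and Zbtb16 lower (-1.09), while Pdk4 (0.12) did not pass. The text of the study describes Cebpd as reduced with age, the other direction from the value here. Of 18 immediate early genes, 5 rose, 1 fell and 12 did not pass (with the trend removed, 2 rose and 1 fell, and with 1 mouse left out, 8 higher without replicate 2 at 6m), with Ier3 (1.22) and Myc (0.95) up and Nr4a3, an activity-induced nuclear receptor, down (-2.17). Leaving out 1 mouse ended the call of Cebpd (0.0536 without replicate 2 at 28m) and Cry2 (0.0676 without replicate 3 at 6m, lost in 7 of 15 such fits).

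Of 19 insulin and IGF signalling genes, 1 rose, 9 fell and 9 did not pass (with 1 mouse left out, as few as 0 higher). Those that fell included the ligand Igf1 (-0.89), the receptor Insr (-0.59) and both substrates Irs1 (-0.96) and Irs2 (-1.51). Irs2 had 1.87, 2.27 and 2.75 CPM in replicates 5, 7 and 3 and 14.7 and 15.4 in replicates 4 and 8, both within the 6m range (log2 fold change -1.51, standard error 0.39, adjusted p = 0.00622). In the trend-removed fit, 2 rose and 4 fell. Of 18 genes of the mTOR complexes and their regulators, 5 rose, 7 fell and 6 did not pass (with the trend removed, 4 rose and 2 fell): the large kinase and scaffold Mtor (-0.71) and Rptor (-0.63) fell, and the small lysosomal anchor Lamtor2 (0.67) rose. Calls lost when 1 mouse was left out were those of Igf1 (0.0636 without replicate 3 at 6m). Removing the trend ended the call of Igf1, Insr, Lamtor2, Mtor and Rptor.

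Of 23 genes of myostatin, activin and TGF-beta signalling, 1 rose, 10 fell and 12 did not pass. Smad3, the transducer, ranged from 127.97 to 319.6 CPM at 6m (median 150.4) and from 51.7 to 108 CPM at 28m (median 72.3) without overlap (log2 fold change -1.24, standard error 0.21, adjusted p = 0.000706). The ligand Gdf11 (-1.09) and the receptors Acvr2a (-0.69) and Acvr2b (-0.70) fell, the antagonist Fst, or follistatin, rose (0.91), and Mstn, or myostatin, did not pass (-0.44). The median of the list, -0.28, became 0.06 with the trend removed, when 8 members were lower and 1 higher.

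Of 19 BMP genes, 4 rose, 6 fell and 9 did not pass (with the trend removed, 5 rose and 4 fell). The ligand Gdf5 ranged from 0.231 to 0.449 CPM at 6m (median 0.356) and from 0.521 to 6.24 CPM at 28m (median 2.52), and every old mouse lay above every 6m mouse (log2 fold change 3.25, standard error 0.47, adjusted p = 0.000346). The target genes Id1 (1.06), Id2 (1.09) and Id3 (0.98) rose. The type II receptor Bmpr2 ranged from 31.8 to 42.7 CPM at 6m (median 35.1) and from 2.67 to 24.8 CPM at 28m (median 6.67) (-1.76), with replicates 3, 5 and 7 lowest.

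Of 27 Wnt genes, 2 rose, 7 fell and 18 did not pass (with the trend removed, 3 rose and 5 fell, and with 1 mouse left out, as few as 1 higher), with the ligands Wnt5b (1.05) and Wnt4 (0.62) higher and the coreceptors Lrp5 (-1.08), Lrp6 (-0.93) and Ror1 (-1.84) lower. Of 18 Notch genes, 3 rose, 7 fell and 8 did not pass (with the trend removed, 4 rose and 3 fell): the receptors Notch1 (-0.79), Notch2 (-0.71) and Notch3 (-1.03) fell, and the targets Hes1 (0.71) and Hey1 (0.88) rose. Of 43 tested axon guidance genes, 0 rose, 24 fell and 19 did not pass (with 1 mouse left out, 1 higher without replicate 2 at 28m and replicate 3 at 28m), with a median of -0.49 as fitted and -0.17 with the trend removed, when 3 rose and 10 fell. Epha3, an ephrin receptor, fell furthest (-2.36) and ranged from 0.610 to 1.94 CPM at 6m (median 0.707) and from 0.0747 to 0.335 CPM at 28m (median 0.159). Receptors of other families, Robo1 (-1.80) and Plxna1 (-1.21), and the ligands Slit3 (-1.12), Sema5a (-1.48) and Ntn4 (-1.04) fell as well. Adjusted p was over 0.05 with 1 mouse left out for Wnt4 (0.0963 without replicate 2 at 28m, lost in 9 of 15 such fits). No longer past the threshold without the trend were Hes1, Notch1 and Notch2.

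As fitted, more members fell than rose in several large families of nuclear and regulatory proteins, and with the trend removed the balance turned or narrowed. Of 35 histone methyltransferases and demethylases, 2 rose, 25 fell and 8 did not pass, with a median of -0.45, among them Setd7 (-0.94), Kdm2b (-0.97) and Kdm6b (-0.93), and with the trend removed 5 rose and 9 fell, with a median of -0.10. Of 51 chromatin remodellers and coactivators, 3 rose, 22 fell and 26 did not pass, but with the trend removed 13 rose and 7 fell. The acetyltransferase Ep300 (-1.18) fell under both settings (-0.70 with the trend removed), whereas the median of the list went from -0.24 to 0.08. Ubiquitin-specific proteases gave a similar change, with 3 of 44 higher and 18 lower as fitted, 8 higher and 7 lower with the trend removed, and a median of -0.23 that became 0.01. Usp9x had 10.8, 12.1 and 19.2 CPM in replicates 3, 7 and 5 and 109 and 116 in replicates 8 and 4 (-1.34).

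Of 324 C2H2 zinc finger genes, 36 rose and 94 fell (with the trend removed, 32 rose and 77 fell). Of 205 solute carriers, 18 rose and 60 fell as fitted, with a median of -0.10, and with the trend removed 31 rose and 38 fell, with a median of -0.02. The carrier that fell furthest was Slc38a4, an amino acid transporter, with values from 96.2 to 238 CPM at 6m (median 134) and from 18.5 to 58.4 CPM at 28m (median 43.4) and no overlap (log2 fold change -1.83, standard error 0.24, adjusted p = 0.000213). Of 34 kinesins and dyneins, 3 rose, 14 fell and 17 did not pass (with the trend removed, 6 rose and 5 fell, and with 1 mouse left out, 5 higher without replicate 2 at 6m). Of 13 myosin heavy chains, 0 rose, 7 fell and 6 did not pass (with the trend removed, 1 rose and 3 fell, and with 1 mouse left out, 1 higher without replicate 2 at 6m), with Myh10 (-1.14) and Myh13 (-0.96) lower. Of 29 tested protocadherins (of 70 in the table), 0 rose, 8 fell and 21 did not pass (with the trend removed, 0 rose and 6 fell), and the gamma cluster members share exons, so their values are not separate measurements. Transcripts with RIKEN or predicted names rose in 303 of 948 and fell in 146 (with the trend removed, 171 rose and 135 fell of 900 with a known length). Among symbol stems with at least 20 tested genes, Polr, the RNA polymerase subunits, had 15 of 28 genes higher and 2 lower, Nudt, the hydrolases of nucleotide derivatives, 13 of 22 and 1, and Arhgap, the inactivators of small GTPases, 0 of 29 and 14. Once the trend was removed, 8 Polr genes were higher and 2 lower, 10 Nudt genes higher and 3 lower and 2 Arhgap genes higher and 7 lower.

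Among genes with an average log2 CPM of at least 7, the largest rise was that of Mustn1, a small nuclear protein of the musculoskeletal system, with values from 48.0 to 91.3 CPM at 6m (median 63.4) and from 127 to 307 CPM at 28m (median 215) (log2 fold change 1.67, standard error 0.19, adjusted p = 7.17e-05). Car3, the carbonic anhydrase of slow fibres and fat, ranged from 1436 to 3097 CPM at 6m (median 2280.3) and from 4414 to 7351 CPM at 28m (median 5792) (log2 fold change 1.32, standard error 0.17, adjusted p = 0.000204). Both separated the ages, as did the myosin light chain Myl12a (1.38), while Glul (1.17), glutamine synthetase, did so in 7 of 8 mice. The largest falls outside the collagens and perlecan were Smox (-1.64), Fbxo40 (-1.24) and Ttll7 (-1.22). Smox, spermine oxidase of polyamine breakdown, ranged from 288 to 749 CPM at 6m (median 387) and from 92.9 to 261 CPM at 28m (median 130.0) (log2 fold change -1.64, standard error 0.25, adjusted p = 0.000381). Fbxo40 and Ttll7, a ubiquitin ligase subunit for the insulin receptor substrate and a tubulin glutamylase, were lower than 6m in all 8 old mice, and with the trend removed the 3 genes had log2 fold changes of -1.58, -1.15 and -1.03. With 1 mouse left out, adjusted p passed 0.05 for Fbxo40 (0.0633 without replicate 2 at 28m, lost in 9 of 15 such fits).

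The first-run libraries of the same 6m mice served as other controls, with run and age then changing together. Against them, the median log2 fold change at 28m was 0.76 in the ribosomal list, 0.47 in the proteasome, 1.86 in the denervation list, 0.82 in MHC class I, 0.67 in the interferon list and -0.88 in the basement membrane. Over all 12984 genes tested it was 0.0026. Each of these 6 lists kept the sign it had against the second-run 6m libraries.

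Fewer genes were called against the first-run libraries. Of the genes called higher against the second-run libraries, 1511 of 3159 (47.8%) were still higher, and of those called lower, 1391 of 2981 (46.7%) were still lower. Without replicate 4 at 6m these were 2382 (75.4%) and 2231 (74.8%), a setting chosen after seeing the data. The calls remained for 73 of 76 ribosomal, 26 of 33 proteasome, 7 of 7 denervation, 9 of 10 MHC class I and 12 of 12 interferon genes that had risen and for 13 of 15 basement membrane genes that had fallen. In the respiratory chain and mitochondrial translation most calls were lost, with 6 of 32 remaining in complex I, 8 of 20 in complexes III and IV, 4 of 14 in ATP synthase and 14 of 60 in the mitochondrial ribosome, and 27, 19, 11 and 48 remaining without replicate 4 at 6m. Of the histone methyltransferases and demethylases that fell, 10 of 25 remained called, and 22 did so without that library. Of the axon guidance genes that fell, 12 of 24 and 17 did. Fast-fibre genes kept 1 of 6 rises and 0 of 1 falls, and 5 and 1 without that library. Citrate cycle genes kept 0 of 6 rises and 1 of 3 falls, and 3 and 2 without that library. For fatty acid uptake and oxidation, 1 of 6 rises and 2 of 3 falls remained, and 3 and 3 without it.

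At 24m, against 6m libraries of their own run, 8 of 13103 genes were higher (0.0611%) and 3 lower (0.0229%). The study reported more genes for this comparison with DESeq2. No mouse was left out of this 24m test, so how far its counts rest on single libraries was not tested. The list medians at 24m were 0.67 for ribosomal proteins, 0.46 for the proteasome, 2.55 for denervation, 0.42 for MHC class I, 0.36 for interferon-stimulated genes, -0.22 for the basement membrane and -0.10 for fibrillar collagens, and the 24m and 28m comparisons share the 6m mice but not their libraries. A test of the difference between the age effects called 0 of 13455 genes (0.0%), with unadjusted p under 0.05 for 627 with the 28m effect higher (4.66%) and 984 with it lower (7.31%). Limma-voom with the mouse as a block also called 0. Without replicate 4 at 24m the test called 1657. In the basement membrane list 12 members had such an unadjusted p with the 28m effect lower, among them Hspg2 and Lamc1. In the axon guidance list there were 17. In the denervation list 1 member had the 28m effect lower and 0 had it higher, and none of its 10 members was called at 24m, with a median of 2.55.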

How the data were processed

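RNA of the whole TA was sequenced from 8 mice at 28m and 7 at 6m, the second-run libraries of the 6m mice having been prepared in parallel with those of the 28m mice. The deposited values are whole-number counts of reads per gene. Per the labels and the study's methods, the authors converted base calls with bcl2fastq 2.20 and aligned and counted with STAR 2.5.4b on mm10, and the notes also name R 3.5.1 and DESeq2 1.22.2. Which strand column of the counts was deposited is not given in the sources used here, so overlapping and antisense genes cannot be separated.

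Counts were used as deposited. Genes were filtered with filterByExpr, libraries were scaled by TMM, and ages were compared with the edgeR quasi-likelihood test with no covariate, Benjamini-Hochberg adjusted over all genes tested at a threshold of 0.05 (R 4.3.3, edgeR 4.0.16, limma 3.58.1, DESeq2 1.42.0; Python 3.11.15, pandas 2.3.3, matplotlib 3.10.9). The difference between the 28m and 24m effects was a contrast over all 29 libraries. The fits were tested on simulated counts. Fold changes carry edgeR's standard errors. P-values set the age difference against the spread between the mice of each group. In the contrast over all 29 libraries, each adult mouse entered with a library from each run, treated as separate mice. Libraries of the same mouse had a correlation of 0.735, so the p-values of that contrast do not rest on independent mice alone.

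Exonic length, span and GC came from a GENCODE annotation of GRCm38, in which 20202 symbols matched directly and 1880 through a synonym, and 455 did not match. For the length correction, a smooth trend of log2 counts with length and GC was removed from each library. List means are mean log2 CPM per mouse.

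The lists hold 16 cell compartments, 38 pathways and 20 gene families, and the members, lists and comparisons were chosen with earlier results of these data known. The genes named were the lead members of each list, its largest rise and fall among called genes, and the 8 largest rises and 8 largest falls among genes with an average log2 CPM of at least 7. Another 126 genes were named after their values were seen. Certain genes are not reported here, though the list counts include them. Alternatives were DESeq2, limma-voom, DESeq2 size factors, upper-quartile scaling, no filter, at least 10 counts in every library, first-run 6m libraries, equal depth, the length correction and leaving out each mouse. The first-run libraries without 6m replicate 4 were added after seeing the data.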

Additional observations from a re-analysis of the deposited data

Results flagged for a closer look

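Library totals, list means and lead-gene levels were examined for outlying mice, with the 6m and 28m groups counted apart. In 56 of these 430 cases 1 mouse had a gap to the next value past Dixon's critical value at the 95% level. Chance alone passes it in about 1 of 20 for independent, normally distributed values, whereas leads are also members of the list means. All 15 library totals lay within the critical value. Each value below is that of the mouse, with the nearest of its group as the value after the word against. List means are mean log2 CPM relative to the 6m mice. What set these mice apart was not tested.

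Replicate 1 at 6m was highest in its group in the list mean of mitochondrial import (0.12 against 0.01) and in the CPM of Igj, the joining chain of antibodies, (3.73 against 0.674) and Tomm20, an import receptor of mitochondria, (42.7 against 39.2). Replicate 2 at 6m was highest in its group in the list mean of embryonic and regenerating fibre (1.69 against 0.28) and in the CPM of Tnni1 (9.43 against 3.23), Myh3 (27.2 against 6.42), Myh8 (51.3 against 17.4), Col1a1 (737 against 242), Col3a1 (1367 against 379), Col4a1 (309.7 against 205), Lox (25.2 against 13.9), Serpinh1 (104 against 65.8), Mmp2 (131 against 71.2), Timp1 (1.60 against 0.873), Bgn (105 against 54.9), Vcan, versican, (13.8 against 7.19), Isg15 (2.23 against 0.989), Mki67, a proliferation marker, (2.44 against 1.15) and Snhg1 (4.63 against 3.82). Replicate 2 at 6m was lowest in its group in the list mean of fatty acid uptake and oxidation (-0.22 against -0.05) and in the CPM of Ryr1 (6069 against 7086), Scn4a (608 against 719), Cpt1b (1.77 against 2.81) and Insr (100.2 against 110.4). Replicate 3 at 6m was highest in its group in the CPM of Atf4 (202 against 157) and Tsc22d3, the glucocorticoid-induced leucine zipper, (268 against 175). Replicate 3 at 6m was lowest in its group in the list mean of smooth muscle and pericyte (-0.16 against -0.01) and in the CPM of Sox10, a Schwann cell factor, (0.449 against 1.26). Replicate 4 at 6m was highest in its group in the CPM of Myh7 (6.36 against 3.70). Replicate 6 at 6m was highest in its group in the CPM of Plin1, the fat droplet coat protein, (6.53 against 3.28) and Fasn, fatty acid synthase, (39.8 against 25.4). Replicate 7 at 6m was highest in its group in the list mean of sarcomere and Z-disc structure (0.15 against 0.00) and in the CPM of Colq, the anchor of synaptic acetylcholinesterase, (11.0 against 7.41) and Igf1r, the IGF-1 receptor, (31.5 against 26.2).

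Replicate 2 at 28m was highest in its group in the CPM of Myh7 (12.9 against 3.18) and Scd1, a desaturase, (163 against 65.9). Replicate 3 at 28m was highest in its group in the list mean of MHC class I and peptide loading (1.72 against 0.88) and in the CPM of Pvalb (17671 against 11273) and Psmb8 (48.8 against 18.2). Replicate 3 at 28m was lowest in its group in the list mean of fatty acid synthesis (-0.90 against -0.45). Replicate 5 at 28m was highest in its group in the CPM of Mmp2 (70.0 against 41.5). Replicate 6 at 28m was highest in its group in the list means of embryonic and regenerating fibre (2.21 against 1.20) and excitation-contraction coupling (0.36 against 0.16) and in the CPM of Myh8 (101 against 17.6), Runx1 (30.7 against 15.2) and Cdkn1a (134 against 47.0). Replicate 7 at 28m was highest in its group in the list means of macrophage (2.32 against 0.18), antioxidant and metallothionein (1.05 against 0.57) and complement (1.14 against 0.25) and in the CPM of Emr1, the macrophage surface protein F4/80, (11.6 against 3.60), C1qa (83.2 against 18.9), S100a8 (7.72 against 1.80), Mcpt4, a mast cell protease, (7.54 against 3.81), C3 (74.1 against 43.0) and Rpl3 (158 against 87.5). Replicate 8 at 28m was highest in its group in the CPM of Colq, the anchor of synaptic acetylcholinesterase, (14.2 against 8.98).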

How the results depend on the processing

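Libraries of 17633475 counts or more limit genes of a few counts, as in the T and NK list, and the mast, B and slow-fibre lists rest on a few CPM. The length trend in the old mice bears on every list of short or long genes, and its removal also takes out any real difference that goes with length. No paired analysis was possible because the 28m and 6m mice are different animals and the labels give no shared numbers between them; the test against 24m was repeated with the mouse as a block and called 0 genes, as it did without the block. Counts of genes higher and lower at 28m were within 1.5 times of 3159 and 2981 in all alternatives except against the first-run 6m libraries, with 1559 and 1422, which became 2496 and 2324 without 6m replicate 4 of that run, an alternative chosen after seeing the data. The count that differed between the 28m and 24m effects, 0, was 1657 without 24m replicate 4. With the length and GC trend removed, medians moved by more than the spread between mice, to -0.085 in fast fibre (sign turned, from 0.012), -0.047 in endothelium, -0.070 in smooth muscle and pericyte, -0.82 in mast cell, -0.11 in excitation-contraction coupling (sign turned, from 0.0004), -0.67 in basement membrane, -0.19 in matrix proteases and inhibitors, -0.16 in cholesterol synthesis and uptake, -0.076 in atrophy ubiquitin ligases and Foxo, 0.26 in autophagy and lysosome, 0.071 in endoplasmic reticulum and integrated stress response, 0.33 in antioxidant and metallothionein, -0.013 in insulin and IGF signalling, 0.063 in myostatin, activin and TGF-beta (sign turned, from -0.28), -0.17 in axon guidance, 0.50 in cytosolic ribosomal protein, 0.14 in mitochondrial ribosomal protein, 0.15 in respiratory complex I subunit, 0.050 in respiratory complexes III and IV subunit, 0.39 in constitutive proteasome subunit, 0.19 in aminoacyl-tRNA synthetase, 0.20 in translation initiation factor, -0.10 in histone methyltransferase and demethylase, 0.078 in chromatin remodeller and coactivator (sign turned, from -0.24), 0.011 in ubiquitin-specific protease (sign turned, from -0.23), 0.42 in small nucleolar RNA host gene, -0.044 in kinesin and dynein, -0.12 in myosin and nonmuscle myosin heavy chain and 0.029 in RIKEN and predicted transcript. Against the first-run 6m libraries, medians moved by more than the spread between mice, to -0.31 in endothelium, 0.17 in autophagy and lysosome, 0.20 in endoplasmic reticulum and integrated stress response, 0.016 in aminoacyl-tRNA synthetase and 0.20 in translation initiation factor. Without the filter on low counts, medians moved by more than the spread between mice, to -0.17 in B and plasma cell (sign turned, from 0.61), 0.59 in senescence and Cdk inhibitors, 1.05 in cell cycle and DNA replication, -0.037 in kinesin and dynein and 0.21 in RIKEN and predicted transcript. Under upper-quartile scaling, the median moved by more than the spread between mice, to 0.20 in RIKEN and predicted transcript. Among single genes the sign reversed, from a small or uncalled value unless named in the text, for Myh7 (-0.29, DESeq2), Myf5 (0.041, first-run 6m without 6m replicate 4), Dmd (0.23, length and GC trend removed), Sgca (-0.012, length and GC trend removed), Sod2 (0.045, length and GC trend removed), Agrn (0.014, length and GC trend removed), Ddit3 (-0.11, length and GC trend removed), Rapsn (-0.14, length and GC trend removed) and Stat2 (-0.071, first-run 6m without 6m replicate 4). With 1 mouse left out, medians ranged in mast cell from -0.62 (without 28m replicate 7) to -0.14 (without 6m replicate 2), autophagy and lysosome from 0.17 (without 28m replicate 7) to 0.24 (without 28m replicate 5), fibrillar collagen from -1.35 (without 28m replicate 5) to -0.66 (without 6m replicate 2) and macrophage from 0.079 (without 28m replicate 7) to 1.04 (without 6m replicate 2). Leaving out 1 mouse also turned the sign of single genes that were not called, with log2 fold changes of Myh7 from -0.30 (without 28m replicate 2) to 0.46 (without 6m replicate 4), Myh8 from -0.34 (without 28m replicate 6) to 1.25 (without 6m replicate 2), Colq from -0.13 (without 28m replicate 8) to 0.16 (without 6m replicate 7), Hdac9 from -0.051 (without 6m replicate 3) to 0.25 (without 28m replicate 7) and Pdk4 from -0.055 (without 28m replicate 2) to 0.25 (without 6m replicate 7). Of the other values of named genes under an alternative, 6120 kept direction and side of the threshold, 273 kept direction and lost the call and 23 gained one, and 1807 list medians moved by less than the spread between mice. The cause of these changes was not tested.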
